A study of Mus musculus with 103 samples.

Results

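Synaptic vesicle and postsynaptic genes were followed through the 103 mouse arrays, as 9 named genes with 15 probe sets out of 12393 genes and 22626 non-control probe sets. Snap25, Syt1, Syn1, Syn2, Syp and Vamp2 encode proteins of the synaptic vesicle and its release machinery. Nrgn, Camk2a and Dlg4 encode proteins of the postsynaptic side. The genes were chosen by name, and every probe set annotated to 1 of these symbols was taken. The comparison asked how far their signal in arrays labelled liver stood above the other tissues, and whether it did so in both labelling protocols.

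The study tested how faithfully protocols for very small RNA amounts profile mouse transcripts. Total RNA of 8 tissues from a commercial panel (labelled brain, embryo, heart, kidney, liver, lung, ovary and spleen) was hybridised to 16 arrays, 2 per tissue. One array per tissue carried cRNA made by the Affymetrix one-cycle protocol from 1 ug, and the other carried cDNA made from 500 pg by the BIIB protocol, named for its developer Biogen Idec. The other 87 arrays held a universal mouse RNA pool (58 arrays), sorted T and B lymphocytes (18) and flow-sorted RAW267 cells, a cultured line (11). The labels gave no strain, sex or age for the tissue donors, and nothing said whether repeated arrays came from separate extractions. The p-values below therefore rest on the spread between arrays alone, which may be technical.

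Chemical synapses release transmitter when vesicle and plasma membrane proteins zip together and fuse in response to calcium. The vesicle protein Vamp2 and the plasma membrane protein Snap25 are SNARE proteins of that fusion, synaptotagmin is its calcium sensor, and synapsins tether vesicles in reserve. Across the cleft, the scaffold encoded by Dlg4 (PSD-95) holds receptors in place, the kinase encoded by Camk2a responds to calcium, and neurogranin, the product of Nrgn, binds calmodulin. These transcripts are abundant in adult neurons and serve as markers of them in brain RNA.

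The tissue named on an array and the RNA on it did not match for brain and liver. Of 16 neuron markers, 15 were highest in the arrays labelled liver in both protocols, and so were 8 of 8 oligodendrocyte markers. The summed signal of the neuron markers was 288676 by one-cycle and 335918 by BIIB in the arrays labelled liver, against 2565 and 2837 in those labelled brain. All 16 liver markers were highest in the arrays labelled brain in both protocols, and their sum in the arrays labelled liver was 2318 and 2806. Albumin (Alb), the main plasma protein made by hepatocytes, read 65.2 and 378.5 in the arrays labelled liver against 389092 by one-cycle in the array labelled brain. Every array is therefore named by its label below, and the arrays labelled liver are those with neural markers. All arrays had been scaled to 1 trimmed mean signal, and no array was left out.

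Promoter windows were available for 6 of the 9 genes, and 3 are shown because these genes were high together in the same arrays. Each window holds 250 bases before and 50 after the annotated start, from RefSeq on GRCm38.p6, printed 5′ to 3′ on the gene's own strand. Capitals in Syn1 (chrX:20920869-20921168, minus strand) mark TTCAGCACC at bases 19 to 27, the left arm of the neuron-restrictive silencer element RE1, and TGACGTCA at bases 92 to 99, the cAMP response element. Capitals in Syp (chrX:7638330-7638629, plus strand) mark GGGCGG, the GC box, and those in Nrgn (chr9:37552696-37552995, minus strand) mark the GC box and the CCAAT box, both on the other strand.
Syn1: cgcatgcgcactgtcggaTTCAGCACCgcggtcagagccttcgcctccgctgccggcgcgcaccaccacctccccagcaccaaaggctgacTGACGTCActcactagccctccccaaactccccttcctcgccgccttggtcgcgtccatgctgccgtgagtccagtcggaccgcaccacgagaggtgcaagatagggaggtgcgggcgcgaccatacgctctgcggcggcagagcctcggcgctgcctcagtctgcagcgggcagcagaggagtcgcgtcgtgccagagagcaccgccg
Syp: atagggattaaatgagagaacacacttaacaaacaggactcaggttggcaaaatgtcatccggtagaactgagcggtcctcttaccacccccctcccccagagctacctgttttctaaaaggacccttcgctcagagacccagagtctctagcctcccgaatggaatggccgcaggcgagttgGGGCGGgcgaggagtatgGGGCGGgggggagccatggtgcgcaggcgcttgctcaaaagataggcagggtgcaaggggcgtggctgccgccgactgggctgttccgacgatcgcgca
Nrgn: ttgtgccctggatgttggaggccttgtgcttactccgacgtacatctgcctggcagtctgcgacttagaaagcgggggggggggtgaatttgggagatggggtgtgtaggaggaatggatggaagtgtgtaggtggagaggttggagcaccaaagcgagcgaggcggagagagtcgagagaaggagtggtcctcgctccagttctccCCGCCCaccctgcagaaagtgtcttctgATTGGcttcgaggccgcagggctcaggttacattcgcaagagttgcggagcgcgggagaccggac

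Motifs were searched on both strands of the 10 windows of these 6 genes and of all 32851 windows. TTCAGCACC was in the Syn1 window alone among the 6 genes and in 0.371% of all windows. The right arm of RE1, GGACAG, was in a Syt1 window alone and in 22.2% of all. Both arms together, with any pair of bases between them, were in none of the 10 windows and in 0.0122% of all. Only exact letters were searched, and in Syn1 the left arm is followed at that spacing by ggtcag in place of GGACAG. TGACGTCA was likewise in Syn1 alone and in 1.79% of all. GGGCGG was in 5 of the 10 windows, those of Syt1, Syn2, Syp, Nrgn and Dlg4, and in 35.7% of all windows. CCAAT was in 3 of the 10, of Syt1, Syn2 and Nrgn, and in 37.4% of all. TATAAA was in no window of the 6 genes and in 13.6% of all. A match describes these letters in these windows and was not tested as a binding site.

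Every member gene read highest in the arrays labelled liver, in both protocols, by its brightest probe set. Signals are linear MAS5 intensities, tests used log2 of the signal plus a small constant in 1 fit of the 16 arrays with protocol as a covariate, and probe sets under a mean signal of 500 over these arrays were left out. Calls required at least a 2-fold difference and a p under 0.05 after Benjamini-Hochberg adjustment over all probe sets tested. Of the 15 probe sets 12 passed the filter, covering 8 genes, and 12 of 12 were called higher, with a background of 15.3% of all 15180 probe sets called higher. All 12 also read above the 7 other tissues in both protocols, against 12.5% of all 15180 probe sets. The median difference of the 12 was 4.50 on the log2 scale, from 1.91 to 8.61, against -0.11 for all probe sets tested. Filtering favoured this outcome, since without the arrays labelled liver only 3 of the 15 probe sets pass it, so the count is a description. With no filter 14 of 15 probe sets and 9 of 9 genes were called higher, against 12.4% of all probe sets. The brightest probe set of a gene was chosen with the arrays labelled liver included, so the count of genes is a description too. In bulk RNA, fewer cells of a type and less RNA per cell cannot be told apart.

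Snap25, the plasma membrane SNARE, gave the largest difference of the members. Its signal was 59501 by one-cycle and 168374 by BIIB in the arrays labelled liver. In the 7 other tissues it ran from 16.8 to 619.0 with a median of 143.4 by one-cycle, and from 6.20 to 1608 with a median of 61.2 by BIIB. The groups did not overlap, and the highest other array was embryo in both protocols. The difference was 8.61 ± 0.46 (log2, SE; 2 arrays against 14; limma, adjusted p = 1.6e-07). Its error, as in each tissue comparison, is the disagreement of the protocols between labels and leaves out the spread among the 7 other tissues. With those taken as 1 group the error was 0.78 (limma, adjusted p = 3e-06), and 6.39% of all probe sets were called higher. Snap25 was the only representative probe set of a member that read higher by BIIB than by one-cycle, by 2.83-fold.

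Synaptotagmin 1 (Syt1), the calcium sensor of fast release, was high in both arrays labelled liver but very unequally. It read 18587 by one-cycle and 1000 by BIIB. Other tissues spanned 21.0 to 842.3 (median 67.3) by one-cycle and 3.80 to 215.6 (median 9.90) by BIIB, so the groups separated within each protocol. Across protocols they nearly met, since embryo by one-cycle stood at 842.3. The difference was 4.40 ± 0.69 (limma, adjusted p = 0.00035), the widest error among the genes tested. A further Syt1 probe set read 12748 and 2152 and differed by 4.23 ± 0.58.

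The synapsins coat vesicles and link them to the cytoskeleton. Syn1 read 32950 by one-cycle and 5000 by BIIB in the arrays labelled liver, against 141.4 to 1436 (median 283.4) and 24.1 to 312.6 (median 41.7) elsewhere. Syn2 read 22830 and 9472, against 38.0 to 957.5 (median 459.4) and 1.90 to 329.7 (median 130.4). For both genes the lowest value in the arrays labelled liver lay above the highest of the other 14. Syn1 differed by 5.34 ± 0.34 (limma, adjusted p = 4.6e-07) and Syn2 by 5.33 ± 0.32 (limma, adjusted p = 3e-07). The dimmer Syn2 probe set, at 10913 and 4410, differed by 4.72 ± 0.34.

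Synaptophysin (Syp), an abundant vesicle membrane protein, was high in both arrays labelled liver. It read 17795 by one-cycle and 9992 by BIIB. The other tissues held 151.3 to 546.9 (median 330.8) and 19.0 to 620.8 (median 208.6), with no overlap. Its difference was 5.02 ± 0.34 (limma, adjusted p = 6.9e-07). Another Syp probe set stayed dim, at 146.5 and 59.9 in the arrays labelled liver, below ovary by one-cycle (241.6) and kidney by BIIB (98.5). It was the 1 of 15 probe sets that was not highest in the arrays labelled liver.

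Vamp2, the vesicle SNARE, had the smallest difference of the 8 tested genes. Its brightest probe set read 12621 by one-cycle and 5705 by BIIB, against 415.1 to 1958 (median 967.5) and 208.3 to 754.2 (median 498.8). Heart led the other tissues by one-cycle and lung by BIIB, and the arrays labelled liver stayed above both. The difference was 3.48 ± 0.25 (limma, adjusted p = 1.1e-06). A further Vamp2 probe set read 7165 and 771.0, and heart by one-cycle, at 3845, stood above the BIIB array labelled liver. That probe set differed by 1.91 ± 0.46 (limma, adjusted p = 0.0055), and with the other 7 tissues taken as 1 group its adjusted p was 0.090.

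**Figure D1:**
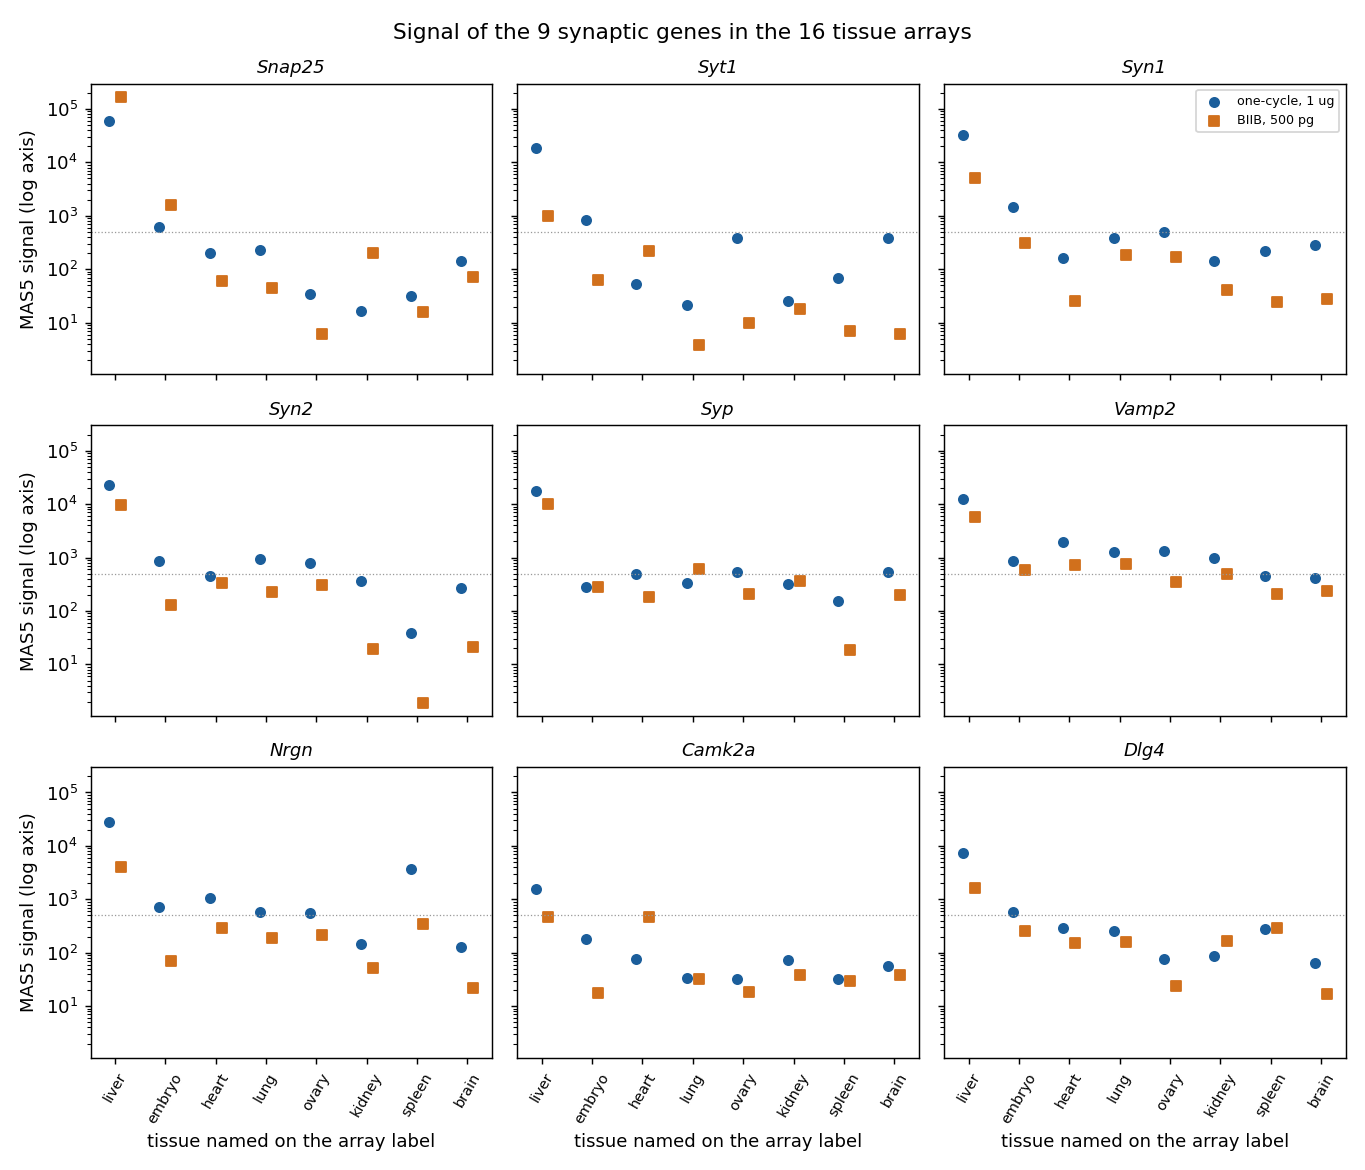
MAS5 signal (log axis) of the brightest probe set of each of the 9 genes, by the tissue named on the array label, with 1 circle for the one-cycle array from 1 ug and 1 square for the BIIB array from 500 pg. The dotted line is a signal of 500. Both arrays labelled liver stand above the 7 other tissues of their protocol in every panel, by the least for Camk2a by BIIB, at 470.7 against 459.2 in heart.

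The postsynaptic genes followed the same order of labels at the top. Neurogranin (Nrgn) read 28531 by one-cycle and 4038 by BIIB in the arrays labelled liver, against 125.8 to 3659 (median 568.4) and 21.8 to 347.3 (median 190.6). Spleen was the highest other tissue in both protocols, and at 3659 by one-cycle it came close to the BIIB array labelled liver without passing it. The difference was 4.61 ± 0.43 (limma, adjusted p = 6.6e-06).

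Dlg4, the PSD-95 scaffold gene, had 3 probe sets that differed among themselves. The brightest read 7509 by one-cycle and 1642 by BIIB, against 65.4 to 585.4 (median 250.5) and 16.9 to 291.0 (median 158.4), with no overlap. It differed by 3.67 ± 0.37 (limma, adjusted p = 1.2e-05). The next read 6920 but only 474.8 by BIIB, under heart by one-cycle at 814.4, and differed by 2.48 ± 0.48. The third ran the other way round, at 393.4 by one-cycle and 1581 by BIIB, and did not pass the filter.

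Camk2a, the alpha subunit of calcium/calmodulin-dependent kinase II, was dim throughout and did not pass the filter. Its single probe set read 1575 by one-cycle and 470.7 by BIIB in the arrays labelled liver, where 64.3% and 46.2% of the probe sets of those arrays read lower. Elsewhere it read 31.6 to 184.5 (median 57.7) and 17.7 to 459.2 (median 32.2). Heart by BIIB, at 459.2, was nearly level with the BIIB array labelled liver. With no filter the difference was 2.42 ± 0.43 (limma, adjusted p = 0.00093).

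The order of tissues below the arrays labelled liver was not shared. Ranked by mean log2 signal over both protocols, after the mean of each protocol was subtracted, embryo came next for Snap25, Syt1, Syn1 and Dlg4, heart for Vamp2 and Camk2a, ovary for Syn2, lung for Syp and spleen for Nrgn. For 9 of 9 genes the ranges of the first and the next label did not overlap, and the share over all probe sets is not given for this measure. By another measure, raw signal, the 9 read highest in the arrays labelled liver in both protocols. So did 12.5% of all 15180 probe sets tested, which do not include Camk2a. Below the first, the ranges of 3 to 6 of the 6 neighbouring pairs overlapped, depending on the gene. Only 1 to 4 of the 6 pairs stood in the same order in both protocols.

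Within a protocol 1 array labelled liver stands against 7 others, so these differences have no replicate check. All 9 brightest probe sets differed upwards in both protocols, by 3.16 to 7.84 (log2) by one-cycle and by 1.68 to 9.38 by BIIB. In the fit of both protocols, leaving out the one-cycle array labelled liver left 7 probe sets above the filter and 6 called, against 11.9% of all probe sets called higher in that fit. The one not called was the dimmer of Vamp2, at 1.28 ± 0.62 (limma, adjusted p = 0.15).

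Embryo RNA holds a developing nervous system, and against it the arrays labelled liver had 12 of 12 tested probe sets called higher, with a background of 13.5% called higher and 17% called lower. With no filter 13 of 15 were called higher, against 9.76% of all probe sets. The median difference was 4.14, from 1.72 to 6.46, against -0.07 for all probe sets. Snap25 differed by 6.46 ± 0.61 (limma, adjusted p = 1.3e-05), Syp by 5.04 ± 0.45 (adjusted p = 8.7e-06) and Dlg4 by 2.82 ± 0.49 (adjusted p = 0.00098). Syt1 was the weakest of the representative probe sets in p, at 3.43 ± 0.91 (limma, adjusted p = 0.013), and lost its call without the BIIB embryo array (adjusted p = 0.12). This contrast shares its arrays with the one above. Leaving out the one-cycle array labelled liver gave 6 of 7 here too, against 9.25% of all probe sets.

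Within the rest of the tissues, embryo stood above the 6 others for 2 of the 12 tested probe sets, against a background of 11.2% called higher and 6.63% called lower. With no filter the count was 2 of 15, against 8.59%. Snap25 read 619.0 and 1608 in embryo and was higher by 2.51 ± 0.47 (limma, adjusted p = 0.0025). Syn1 read 1436 and 312.6 and was higher by 1.59 ± 0.34 (limma, adjusted p = 0.0063). In both protocols embryo was above all 6 others for 2 of the 12, against 6.06% of all probe sets. Dlg4 differed by 0.99 ± 0.37 (limma, adjusted p = 0.083) and Syt1 by 1.13 ± 0.70 (adjusted p = 0.29), and neither was called. Values for Syn2 (0.54), Vamp2 (0.14), Syp (-0.02) and Nrgn (-0.17) were smaller, and each of these 4 turned sign under at least 1 alternative. Snap25 lost its call without the BIIB embryo array (1.89, adjusted p = 0.10) and Syn1 without the one-cycle embryo array (1.30, adjusted p = 0.11).

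**Figure D2:**
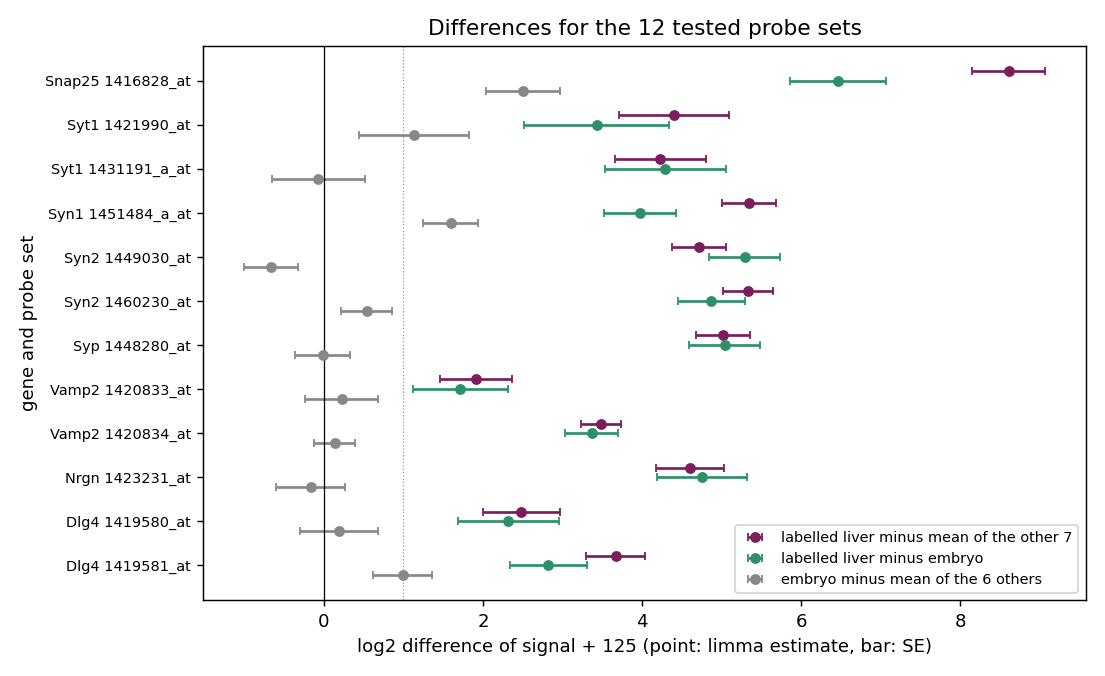
Log2 difference of the signal plus the constant for the 12 tested probe sets, by gene and probe set, as limma estimates with standard errors. Purple is the arrays labelled liver minus the mean of the other 7 labels, green the arrays labelled liver minus embryo, and grey embryo minus the mean of the 6 others; the dotted line is a 2-fold difference. Purple points lie from 1.91 to 8.61 and green from 1.72 to 6.46, while 10 of the 12 grey points were not called.

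Both arrays labelled liver share a label but not a protocol, and the members read lower by BIIB. Of 14 member probe sets with a mean of at least 500 over these 2 arrays, 12 were higher by one-cycle. Of all 13112 such probe sets 7222 were. The median ratio was 3.91-fold for the 14, some of which share a gene, against 1.13-fold for all. Syt1 stood out at 18.6-fold (18587 against 1000). The second Dlg4 probe set followed at 14.6-fold and the dimmer Vamp2 probe set at 9.29-fold. These 3 log2 ratios, 4.22, 3.87 and 3.22, lay above 2.86, the 95th percentile of all probe sets. Syp at 1.78-fold, Vamp2 at 2.21-fold and Syn2 at 2.41-fold were closer to equal. Probe sets of 1 gene did not share a ratio: the 3 of Dlg4 gave one-cycle over BIIB ratios of 14.6, 4.57 and 0.249. With 1 array per protocol this difference has no replicate check, and RNA input and target chemistry changed together.

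**Figure D3:**
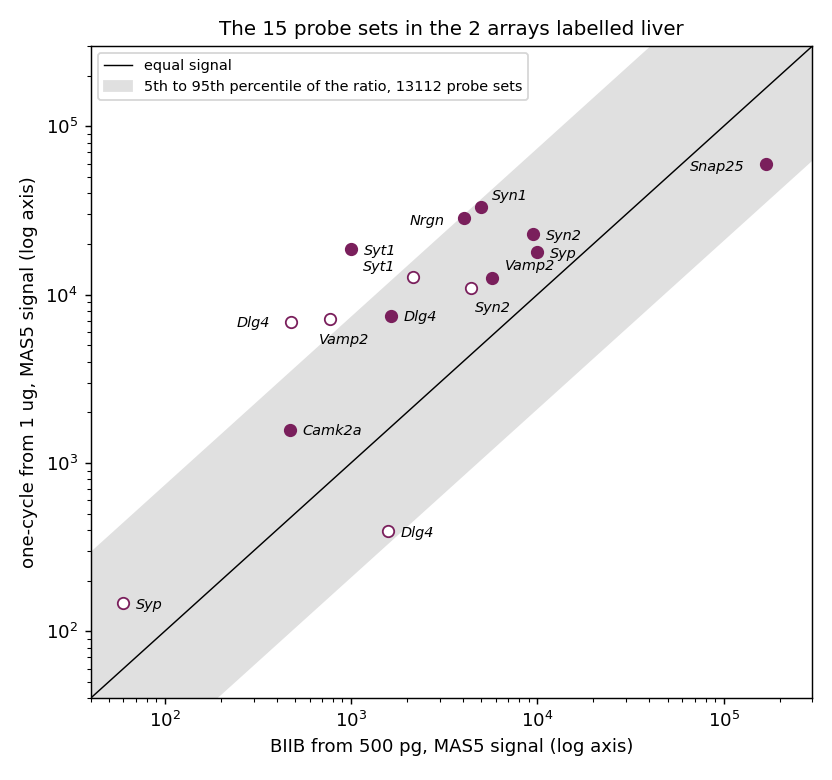
Signal of the 15 probe sets in the 2 arrays labelled liver, BIIB from 500 pg on the horizontal log axis and one-cycle from 1 ug on the vertical one. Filled points are the brightest probe set of each gene and open points the others; the line marks equal signal and the grey band the 5th to 95th percentile of the ratio over 13112 probe sets. Syt1 and 1 probe set each of Dlg4 and Vamp2 lie above the band, and Snap25 lies below the line.

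Universal RNA allowed a replicated comparison of these protocols at the same inputs, with 4 arrays each, though the members were dim in it. Of the 15 probe sets 2 passed the filter, 1 was called lower by BIIB, and the background was 27.3% called lower and 13.5% called higher. The second Dlg4 probe set read 1289, 1130, 1166 and 1196 by one-cycle and 11.5, 42.5, 300.9 and 33.0 by BIIB, with no overlap. It differed by -2.74 ± 0.32 (limma, adjusted p = 5.2e-05). With no filter 3 of 15 probe sets were called lower, against 21.9% of all, the other two being the brightest Dlg4 probe set at -1.98 ± 0.28 and Nrgn at -1.22 ± 0.31. Vamp2 read 870.4 to 1298 by one-cycle and 459.9 to 616.9 by BIIB, again with no overlap, and differed by -0.86 ± 0.16 (limma, adjusted p = 0.00099), under 2-fold. All probe sets together were shifted by -0.30, and relative to that the differences were -2.43 for Dlg4 and -0.56 for Vamp2. Quantile normalization moved the shift to -0.04, the split of calls from 33.1% to 46.7% higher, and the Vamp2 difference to -0.33 (adjusted p = 0.070).

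Other genes of the same machinery were also higher. The lists were drawn up from known functions, with earlier results of these data known. The share of all probe sets called in this comparison was 15.3% higher and 19.4% lower. As for the members, many list genes passed the filter through the arrays labelled liver, so counts without it are given too. Each gene stands by its brightest probe set, chosen with those arrays included, in both kinds of count. Of 37 further genes of vesicle docking, priming and release, 23 were tested and 22 were called higher in the arrays labelled liver, with a median of 4.46. Without those arrays 9 would have passed the filter, and with no filter 26 of 30 on the array were called higher (median 3.97), against 12.4% of all probe sets. Cplx1, which encodes a complexin that clamps the SNARE complex, read 74010 by one-cycle and 200201 by BIIB and differed by 7.70 ± 0.66 (limma, adjusted p = 3.8e-06). Napb, a SNAP protein of SNARE disassembly, differed by 5.78 ± 0.45, the SNARE Vamp1 by 5.28 ± 0.42, and the clathrin adaptor gene Snap91 by 5.26 ± 0.35. The 1 gene not called, Unc13b, named after its value was seen, was at -0.51 (adjusted p = 0.24).

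Vesicle recycling and postsynaptic genes were also higher. Of 12 tested recycling genes 10 were called higher (median 3.26), and these 12 were all of the list on the array. The largest were Atp6v1g2, a subunit of the vacuolar proton pump, at 6.75 ± 0.27, and dynamin 1 (Dnm1), which pinches off endocytic vesicles, at 6.20 ± 0.44. Endophilin A1 (Sh3gl2) at 5.25 ± 0.47 and Stmn2 at 5.21 ± 0.36 followed. Stmn2 encodes a tubulin-binding stathmin and not a recycling protein, so the list is broader than its name. Sh3gl1 (-0.17) and Ap2a2 (0.80), named after their values were seen, were not called. Of the other postsynaptic list 16 of 16 tested genes were called higher (median 2.41), and 18 of 19 with no filter (median 2.35). Without the arrays labelled liver 12 would have passed the filter. Only 19 of the 35 genes of this list were on the array. Of the 16 tested, 13 were above all other tissues in both protocols, against 12.5% of all probe sets. Homer2, named after its value was seen, lay below heart in both, at 3189.5 against 5196.5 by one-cycle. The list was led by the calcium-binding protein genes Pvalb (5.60 ± 0.28), Calb1 (5.57 ± 0.27) and Calb2 (5.51 ± 0.38), and the kinase subunit Camk2b (5.51 ± 0.49). Interneurons express the calcium-binding proteins, which are not particular to the postsynaptic side. Calb1 was also high in kidney, at 33252 by one-cycle against 36583 in the array labelled liver.

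Other relatives of these gene families were called in both directions. Of 28 tested, 7 were called higher and 10 lower, beside 15.3% and 19.4% of all probe sets, with a median of 0.03 beside -0.11. Vamp8, a SNARE of endosomes and secretory granules, differed by -2.44 ± 0.22 (limma, adjusted p = 6.1e-06), at 3092 and 3894 against 9740 to 26056 by one-cycle and 16291 to 39299 by BIIB in the other tissues. Snap23, the relative of Snap25 outside neurons, differed by -2.12 ± 0.36 (limma, adjusted p = 0.00057), Syngr2 by -1.80 ± 0.23 and Stxbp2 by -1.76 ± 0.38. The relatives called higher were led by Syt9 (3.51 ± 0.36), Syt12 (3.23 ± 0.48), Camk2g (3.09 ± 0.27) and Napg (2.71 ± 0.29). Within families the signs therefore differed: Snap25 was higher and Snap23 lower, and Vamp2 higher and Vamp8 lower, in the same arrays.

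**Figure D4:**
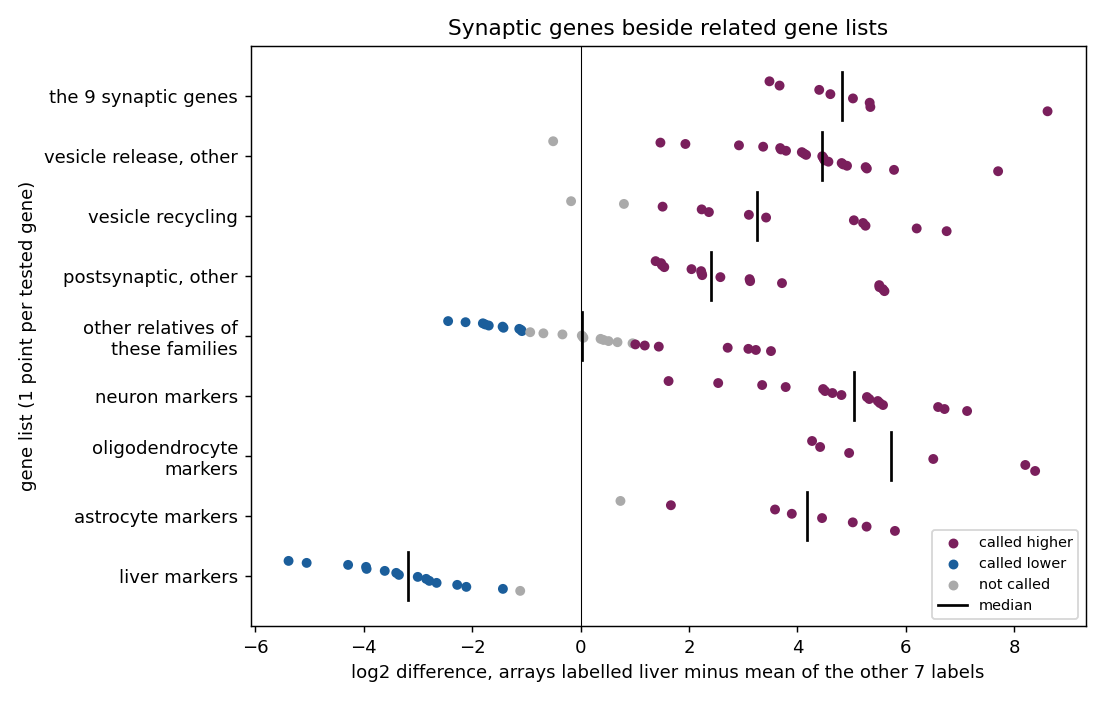
Log2 difference of the arrays labelled liver minus the mean of the other 7 labels, 1 point per tested gene by its brightest probe set, with the median of each list as a black bar. Purple points were called higher, blue lower and grey not called. The 8 tested synaptic genes have a median of 4.82 and the 28 other relatives of these families a median of 0.03, while liver markers lie at a median of -3.18.

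Markers of the cell types that accompany neurons moved with the synaptic genes. Of the tested markers, 16 of 16 for neurons (median 5.05), 6 of 6 for oligodendrocytes (5.73), 7 of 8 for astrocytes (4.17) and 6 of 7 for neuroendocrine cells (6.14) were called higher. With no filter the counts were 16 of 16, 8 of 8, 7 of 8 and 8 of 9, against 12.4% of all probe sets. The neuron and oligodendrocyte markers had already served to describe these arrays as neural, so their counts are not a separate test. Lower calls came from 15 of 16 liver, 8 of 9 heart, 6 of 8 kidney, 7 of 7 lung and 6 of 7 spleen markers. Of all probe sets tested, 15.3% were called higher and 19.4% lower. The comparison group held the arrays where these tissue markers are high, which favoured lower calls, so those counts are a description. Embryo carried part of the neuron signal, at a summed 44955 and 60920 against 2565 to 10124 by one-cycle and 2837 to 13616 by BIIB in the 6 others. Its oligodendrocyte sum, 10344 by one-cycle and 6726 by BIIB, lay below that of spleen, 27269 and 10646. Most of the spleen sum was Cnp, at 26479.1 by one-cycle and 9579.8 by BIIB, against 6519.5 and 3125.4 in embryo. The order of these sums therefore rested on Cnp and does not rank embryo and spleen for the other oligodendrocyte markers. The part of these cell types in the synaptic differences was not tested.

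Against embryo, the lists gave fewer calls for some groups of genes. Higher in the arrays labelled liver were 21 of 23 release genes, 9 of 12 recycling genes, 13 of 16 other postsynaptic genes and 12 of 16 neuron markers. Of 28 relatives 7 were higher and 7 lower. The share of all probe sets was 13.5% higher and 17% lower. With no filter the lists gave 24 of 30, 9 of 12, 14 of 19 and 12 of 16, against 9.76% of all probe sets. Of the relatives 7 were then higher and 6 lower. Dcx, which encodes doublecortin of migrating young neurons and was named after its value was seen, was called lower than in embryo, at -2.01 ± 0.71 (limma, adjusted p = 0.0495), a call lost with no filter. Embryo itself stood above the 6 other tissues for 8 of 23 release genes, 7 of 12 recycling genes, 4 of 16 other postsynaptic genes (1 lower) and 13 of 16 neuron markers, beside 2 of 8 tested synaptic members. The share of all probe sets in that comparison was 11.2% higher and 6.63% lower. With no filter these counts were 8 of 30, 7 of 12, 4 of 19, 13 of 16 and 2 of 9. These differences between comparisons were not tested, and the comparisons share arrays.

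Across the 16 arrays each member tracked the mean log2 profile of the other 8 at Pearson r from 0.82 (Nrgn) to 0.96 (Syn1). The genes outside every list whose profile was most like the members' mean were Hpca (r = 0.98), which encodes the neuronal calcium sensor hippocalcin, Map4 (0.98), a microtubule-associated protein gene, Gng13 (0.98), a G protein gamma subunit gene, Cend1 (0.97), and Cntn1 (0.97), the neural adhesion molecule contactin 1. These correlations are a description over 16 arrays that share the contrast between 2 arrays and 14. Hpca read 15842 by one-cycle and 4037 by BIIB in the arrays labelled liver and differed by 5.44 ± 0.31.

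In the 87 arrays that held no tissue panel RNA, the members were mostly dim, with exceptions by gene and array set. Over the universal arrays of 5 protocols, the lymphocytes of 100 or 500 cells and RAW267, the median of Snap25 ran from 25.3 (24 BIIB universal arrays) to 466.5 (12 arrays of 100 lymphocytes). The median of Vamp2 ran from 148.0 (10 RiboAmp universal arrays) to 1336 (10 Ovation universal arrays), so it reached its range in the 7 other tissues. In the 12 arrays of 100 lymphocytes the median of Syp was 1355, above 620.8, its highest value in the 7 other tissues. Other medians above 500 included Syn2 (677.7) and Dlg4 (652.0) in those lymphocyte arrays and Nrgn (922.8) in the RiboAmp arrays. Snap25, Syn2, Syp and Vamp2 never reached the lower of the arrays labelled liver. Single arrays passed that level for Syt1 (4 of 87), Syn1 (1), Nrgn (1), Dlg4 (6) and Camk2a (8), mostly from 50 pg or less or from 100 cells.

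One RAW267 array from 50 cells read several of these transcripts above the other 10. Replicate 1 of 50 cells read Snap25 at 26457, the 96.4th percentile of that array, while the other 10 RAW267 arrays lay between 10.3 and 823.6. Its Syn2 was 4850 against 2.20 to 895.6 and its Syp 2534 against 13.7 to 465.4. Syn1 (637.3) and Syt1 (327.5) were also the highest of the 11 arrays. Vamp2 (590.3), Nrgn (619.6), Camk2a (147.0) and Dlg4 (118.8) fell within the range of the other 10 arrays. The 9 members summed to 36281, against 670.4 to 2751 in the others and 2742 in replicate 2 of 50 cells. Among genes picked after their values were seen, Cplx1 (10559), Dnm1 (4754), Scg5 (5526), Cpe (10797) and the neuron markers Stmn3 (2633) and Eno2 (7216) were also above the other 10 arrays, whereas neurofilament Nefl (224.2) and the myelin gene Mobp (404.9) were not. The other release genes summed to 36403 against 20565 to 31022 and the recycling genes to 51639 against 18125 to 30804. The 16 neuron markers summed to 19164 against 3593 to 13694, the 9 neuroendocrine markers to 19609 against 1183 to 9391, the 8 astrocyte markers to 11530 against 7888 to 19211 and the 8 oligodendrocyte markers to 1741 against 1718 to 6565. Replicate 2 of 50 cells held the upper end of the ranges for all these list sums, and for Cplx1 at 8100. It also read 9 heart markers at a summed 56213, against 4254 in replicate 1. The source of these signals was not tested.

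**Figure D5:**
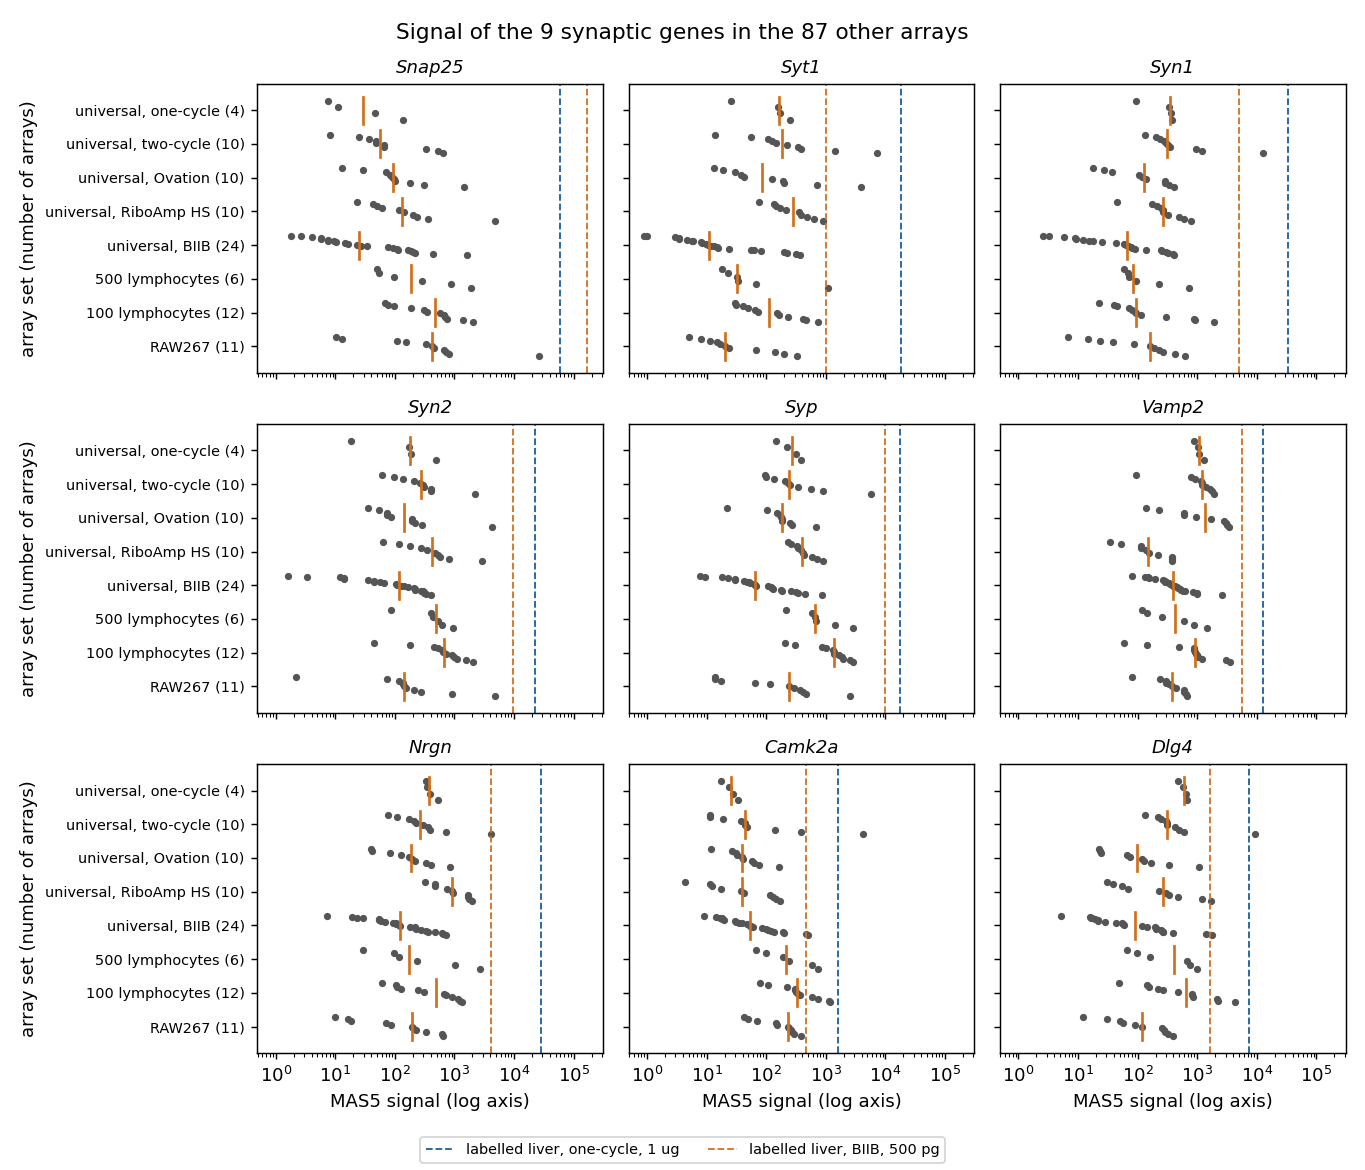
Signal (log axis) of the brightest probe set of each of the 9 genes in the 87 arrays without tissue panel RNA, 1 point per array, with the median of each set as an orange bar. Dashed lines give the signal in the 2 arrays labelled liver, by one-cycle (blue) and BIIB (orange). In the Snap25 panel all arrays but 1 lie at or below 4792, and that one is RAW267 at 26457.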

How the data were processed

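RNA of mouse tissues, a universal pool, lymphocytes and RAW267 cells had been hybridised to 103 Affymetrix arrays. The deposited values are linear MAS5 signal intensities of 22690 probe sets, per the submitters' processing notes, with a trimmed mean near 2501 on every array. No source used here gave the MAS5 settings.

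Groups came from the sample labels. Signals were rescaled to 1 trimmed mean, 64 control probe sets were removed, and log2(signal + 125) was fitted by lmFit and eBayes of limma 3.58.1 (R 4.3.3), with Benjamini-Hochberg adjustment over all probe sets tested. The pseudocount of 125 understates differences of dim probe sets. Each fit kept probe sets with a mean signal of at least 500 over its arrays. Tissue fits held 8 labels and protocol as a covariate, with 1 array per label and protocol, so the error is the disagreement of the protocols between labels. Universal RNA fits compared 4 arrays with 4. The number of arrays limits precision.

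A gene was represented by its brightest probe set over the 16 tissue arrays. Gene names came from GEO's platform annotation, where 20393 probe sets had 1 symbol, 691 several and 1606 were unlisted. Genes named were all members, the 4 genes of a list with the largest called differences each way between the arrays labelled liver and the other tissues, and the 5 unlisted genes with the highest Pearson r with the members' mean profile. The members and lists were chosen with earlier results of these data known. The fit was tested on simulated data. Alternatives covered the filter, pseudocount, quantile normalization, call rule, protocol term, replicate block and arrays left out.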

Additional observations from a re-analysis of the deposited data

Results flagged for a closer look

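Among 63 sets of 4 replicate arrays of the 9 genes in universal RNA, 7 held an array that stood far from the other 3. Its gap to them was 0.90 to 0.94 of the range of the 4 values, on the log2 scale of the fits. The genes share the same arrays, so the sets are not independent and no rate expected by chance is given. Snap25 was 216.9 in replicate 4 of BIIB from 1 ng, against 14.8 to 27.3 in the others. From 50 pg it was 1639 in replicate 3, against 5.70 to 33.7. Syt1 from 50 pg was 317.9 in replicate 4, against 2.90 to 13.1. Dlg4 was 1755 in replicate 3 of BIIB from 10 pg, against 19.6 to 58.2, and 203.0 in replicate 4 from 500 pg, against 17.5 to 28.3. Lower than the others were Syn1 in replicate 4 of one-cycle, at 94.8 against 339.6 to 372.3, and Syp in replicate 4 of BIIB from 1 ng, at 65.4 against 121.3 to 128.3.

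Of 783 member values in arrays outside the tissue panel, 75 were above every tissue array other than those labelled liver, and 4 of these also stood at or above the 90th percentile of their own array. Snap25 in replicate 1 of 50 RAW267 cells was 26457, where the highest of those tissue arrays held 1608. In replicate 2 of the two-cycle protocol from 50 pg, Syt1 was 7135 against 842.3, Syn1 was 12685 against 1436 and Dlg4 was 9359 against 585.4. That array and its replicate correlated at 0.26 over all probe sets, and the 2 arrays of 50 RAW267 cells at 0.76. By the same measure, 5.55% of all probe sets stood out in the two-cycle array and 5.52% in the RAW267 array, within the range of 1.92% to 6.88% over the 87 arrays. The median was 4.14%, and 4 of 783 member values is a lower share than in any of these arrays. For the 75 no share over all probe sets is given. The cause was not tested.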

How the results depend on the processing

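Of the alternatives to the comparison of the arrays labelled liver with the other tissues, 2 moved the count of called probe sets from 12 by over 1.5 times: 6 of 7 tested without the one-cycle array labelled liver, and 4 of 7 in the BIIB arrays alone. The latter sets 1 array against 7 tissues as 1 group, with no replicate of the array labelled liver, and called 1.1% of all probe sets higher. Leaving out single arrays gave 6 to 12 here and 6 to 12 against embryo. The 2 calls of embryo against the 6 others became 1 with a pseudocount of 500, 1 with no protocol term, and 0 of 3 tested in limma without both arrays labelled liver; single arrays left out gave 1 to 2. In universal RNA the 1 lower call became 3 with no filter and 2 with no minimum fold, and at a mean signal of 1000 no member was left to test. The replicate block gave 1 call, and same-numbered arrays correlated at -0.047 to 0.0036 in their deviations, so the numbers were not taken as pairs. Reversed values were uncalled differences of embryo from the 6 others: Syn2 -0.067 by the mean over probe sets; Syp 0.098 with a pseudocount of 16 and 0.017, 0.0135, 0.080 and 0.016 without both brain, kidney, lung or ovary arrays; Vamp2 -0.10 by quantile normalization, -0.020 without both brain and -0.0245 without both spleen arrays; Nrgn 0.14 without both spleen arrays. Single arrays left out gave -0.30 to 0.26 for Syp, -0.092 to 0.36 for Vamp2 and -0.44 to 0.10 for Nrgn. The causes were not tested.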
